A study of Mus musculus with 12 samples.

Results

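Kera, Lum, Dcn and Epyc are 4 neighbouring mouse genes that encode the small leucine-rich proteoglycans keratocan, lumican, decorin and epiphycan. They were followed by every array probe set annotated to one of them alone, which gave 5 probe sets of 45101 on the array and 4 genes of 18193 measured. Kera, Lum and Epyc had 1 probe set each and Dcn had 2. The genes were chosen by their log2 difference between knockout and wild-type limbs in these arrays, so that difference is described here without a test. The arrays compared embryonic limbs of C57BL/6 mice carrying a homozygous loss of the transcription factor gene Lmx1b (Lmx1b -/-, KO) with limbs of Lmx1b +/+ mice (WT) at 11.5, 12.5 and 13.5 days post coitum (dpc). With 2 arrays in every combination of stage and genotype there were 6 groups. The sources describe the RNA of each array as pooled from fore- and hindlimbs of embryos not used for its duplicate. A pool held 6 limbs, except that for 12.5 dpc the sources disagree between 3 and 6. Limb buds with their girdles were taken at 11.5 and 12.5 dpc. At 13.5 dpc only the zeugopod and autopod (forearm or shank, and hand or foot) were taken. The making of the Lmx1b allele was not described in the labels read here.

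Small leucine-rich proteoglycans are secreted core proteins built of leucine-rich repeats, most of which carry glycosaminoglycan chains, and several bind collagen fibrils and control their thickness and spacing. Keratocan and lumican carry keratan sulfate and are best known from the corneal stroma. Lumican and decorin are also made widely by fibroblasts of skin, tendon and other connective tissue, decorin with a chondroitin or dermatan sulfate chain, and decorin can bind transforming growth factor beta. Epiphycan belongs to cartilage, where it marks the growth plate. Lmx1b encodes a LIM-homeodomain protein that specifies the dorsal side of the limb and is also needed in the eye and kidney.

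In RefSeq the genes lie side by side on chromosome 10 in the order Dcn, Lum, Kera and Epyc, with the long noncoding gene 4930473O22Rik between Lum and Kera and Gm40749 between Kera and Epyc. RefSeq promoter windows (build GRCm38.p6) were matched for 2 of the 4 genes, Kera and Epyc. The 250 bases before each start are shown because homeodomain factors commonly bind a TAAT core. Capitals mark each TAAT on either strand, so that ATTA is a match on the reverse strand. Both windows read 5′ to 3′ on the plus strand, Kera from chr10:97606955-97607204 and Epyc from chr10:97643818-97644067.
Kera: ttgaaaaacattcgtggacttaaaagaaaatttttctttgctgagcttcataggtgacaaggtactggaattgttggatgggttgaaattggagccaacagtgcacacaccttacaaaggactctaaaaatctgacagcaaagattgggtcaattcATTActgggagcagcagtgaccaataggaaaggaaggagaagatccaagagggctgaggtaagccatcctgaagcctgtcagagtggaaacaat
Epyc: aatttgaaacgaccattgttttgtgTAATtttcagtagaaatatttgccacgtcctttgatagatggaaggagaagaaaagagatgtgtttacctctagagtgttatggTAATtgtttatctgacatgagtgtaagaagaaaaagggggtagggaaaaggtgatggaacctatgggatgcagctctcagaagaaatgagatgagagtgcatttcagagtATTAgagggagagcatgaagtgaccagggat
The Kera window held 1 match, 94 bases before the start. The Epyc window held 3, at 225, 141 and 31 bases before the start. Another annotated Epyc start, chr10:97646853-97647102, had 5 TAAT matches in its window. The longer palindrome TAATTA, which contains TAAT, and the TATA-box letters TATAAA were searched on both strands and occurred in none of the 3 windows. The E-box letters CANNTG occurred only in that other Epyc window, at 118 and 106 bases before the start. Among 32851 promoter windows of the same length, 54.9% held TAAT, 4.84% TAATTA, 66.2% CANNTG and 12.4% TATAAA, so a TAAT match is common. These matches describe letters and are no evidence of binding.

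The knockout label was checked on Lmx1b itself. Its brighter probe set read 9.28 and 9.64 in the WT arrays at 11.5 dpc, 9.29 and 9.55 at 12.5 dpc, and 10.27 and 10.19 at 13.5 dpc, as log2 signal. The KO arrays read 5.60 and 5.72, 6.50 and 7.02, and 7.48 and 8.88 at the same stages, so all 6 lay below all 6 WT arrays. The mean KO minus WT difference over stages was -2.84 ± 0.20 (SE, limma adjusted p = 0.000356). By stage it was -3.80, -2.66 and -2.05 (limma adjusted p = 0.00872, 0.0476 and 0.153), so the 13.5 dpc value alone did not pass. The other Lmx1b probe set was below the array median in every group and had a mean difference of -0.16 ± 0.09 (limma adjusted p over probe sets = 0.832). Whether this probe set lies inside the deleted part was not checked. Levels here are log2, so a difference of 1 is a 2-fold change, and ± is the standard error (SE) from the limma fit unless stated. A pair of KO arrays stood apart from their duplicates. KO 12.5 dpc replicate 2 had the heat-shock gene Hspa1a at 9.36 against 4.80 to 5.71 in the other arrays. KO 13.5 dpc replicate 2 had the highest Lmx1b of any KO array, and a mean of 9.79 over proximal limb genes against 8.50 in its duplicate. Results that rest on these arrays are given with and without them. Without them the KO groups at 12.5 and 13.5 dpc hold 1 array each. The p-values and counts of calls of such fits then rest on the spread within the other groups. Each stage was scanned as a series of its own holding both genotypes, so stage and scan series cannot be told apart, nor, at 13.5 dpc, can the dissected part. The hindlimb gene Pitx1 read 6.09 to 6.28 at 11.5 dpc, 5.76 to 6.06 at 12.5 dpc and 9.88 to 10.3 at 13.5 dpc. The forelimb gene Tbx5 read 10.14 to 10.66, 10.91 to 11.38 and 9.47 to 9.93. The share of fore- and hindlimb in the pools was not tested, and a change of it between stages cannot be told apart from stage. Prrx1, a transcription factor of limb mesenchyme, read 12.14 to 12.56 in all 12 arrays. The 3 measured markers of the eye, among them Pax6 and Krt12, did not rise above the array median of 6.28 in any group.

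All 4 genes had both KO arrays below both WT arrays at each of the 3 stages. Of all genes, 1.31% did so at every stage, and 26.8%, 19.3% and 22.3% did so at 11.5, 12.5 and 13.5 dpc alone. Kera showed the widest gap, Lum and Dcn smaller ones, and Epyc a wide gap at 12.5 dpc only. Because the genes were chosen with this contrast known, nothing is read from those shares. In pooled tissue, fewer cells of a type and less RNA per cell cannot be told apart.

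**Figure D1:**
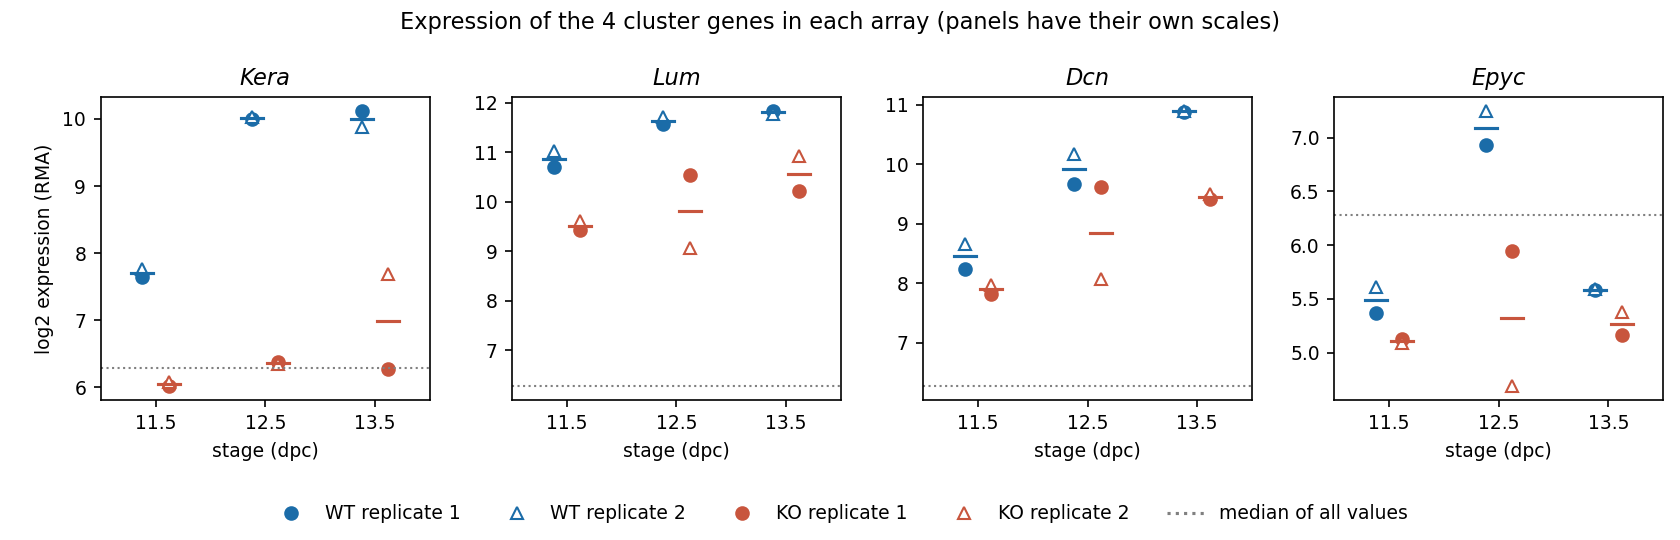
Log2 signal (vertical axis) of Kera, Lum, Dcn and Epyc in each of the 12 arrays, by stage in dpc (horizontal axis) and genotype, with 1 point per array and a line at each group mean. In each panel both KO points lie below both WT points at every stage, and the Kera gap is widest at 12.5 dpc (WT 10 and 10.03, KO 6.37 and 6.34).

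Kera encodes the keratan sulfate proteoglycan keratocan. In WT limbs its level was 7.65 and 7.77 at 11.5 dpc, 10 and 10.03 at 12.5 dpc, and 10.12 and 9.88 at 13.5 dpc. In KO limbs it was 6.02 and 6.08, 6.37 and 6.34, and 6.27 and 7.69. Of the 6 KO arrays, 5 lay within 6.02 to 6.37, close to the array median of 6.28, and only KO 13.5 dpc replicate 2 rose clear of it, to a level near that of WT limbs at 11.5 dpc. KO minus WT was -1.66 ± 0.33 at 11.5 dpc, a 3.16-fold lower signal. The gap was -3.67 ± 0.33 at 12.5 dpc, 12.7-fold. At 13.5 dpc it was -3.02 ± 0.33, 8.11-fold, and -3.73 without the 2 arrays that stood apart. The mean over stages was -2.78 ± 0.19, which ranked 2 of 18193 genes from the most lowered. The KO levels lay around the median of all values, with 3 of the 6 KO arrays above it.

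Lum encodes lumican, the other keratan sulfate proteoglycan. Its WT level was 10.69 and 11.02 at 11.5 dpc, 11.57 and 11.70 at 12.5 dpc, and 11.83 and 11.77 at 13.5 dpc. Its KO level was 9.42 and 9.60, 10.54 and 9.07, and 10.21 and 10.92. Lum stayed far above the array median in every KO array, so KO limbs kept a readily measured Lum signal, unlike that of Kera. The KO duplicates disagreed by more than 1 log2 unit at 12.5 dpc, where replicate 2 was lower. KO minus WT was -1.35 ± 0.38 at 11.5 dpc, -1.83 ± 0.38 at 12.5 dpc and -1.23 ± 0.38 at 13.5 dpc. Averaged over stages it was -1.47 ± 0.22, or 2.77-fold lower, ranked 4 of all genes from the most lowered. Without the 2 arrays that stood apart, the value at 12.5 dpc was -1.09 and the mean over stages -1.34.

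Dcn encodes decorin. Its brighter probe set read 8.25 and 8.67 in WT limbs at 11.5 dpc, 9.68 and 10.18 at 12.5 dpc, and 10.89 and 10.90 at 13.5 dpc. The KO arrays read 7.83 and 7.98, 9.62 and 8.07, and 9.42 and 9.50. At 12.5 dpc the upper KO array lay only just under the lower WT array, while the other was far below. At 13.5 dpc both genotypes had tight duplicates and the gap was clear. KO minus WT was -0.56 ± 0.38, -1.09 ± 0.38 and -1.43 ± 0.38 in stage order, with a mean of -1.03 ± 0.22 (2.04-fold lower). Leaving out the 2 arrays that stood apart moved the value at 12.5 dpc to -0.32, within 2 SE of 0, and left -1.47 at 13.5 dpc. The other Dcn probe set read 3.87 to 4.49 in all 12 arrays, under the array median throughout, and its mean KO minus WT was 0.05 ± 0.08. The Dcn values thus come from 1 of its 2 probe sets.

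Epyc encodes epiphycan, the cartilage member. Its WT level was 5.37 and 5.61 at 11.5 dpc, 6.93 and 7.25 at 12.5 dpc, and 5.58 and 5.59 at 13.5 dpc. Its KO level was 5.13 and 5.09, 5.95 and 4.69, and 5.16 and 5.38. Only the 2 WT arrays at 12.5 dpc exceeded the array median, so Epyc was dim elsewhere. KO minus WT was -0.37 ± 0.31 at 11.5 dpc, -1.77 ± 0.31 at 12.5 dpc and -0.31 ± 0.31 at 13.5 dpc. The middle value was -1.14 without the 2 arrays that stood apart. Its rank from the most lowered gene was 168, 7 and 752 in stage order.

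**Figure D2:**
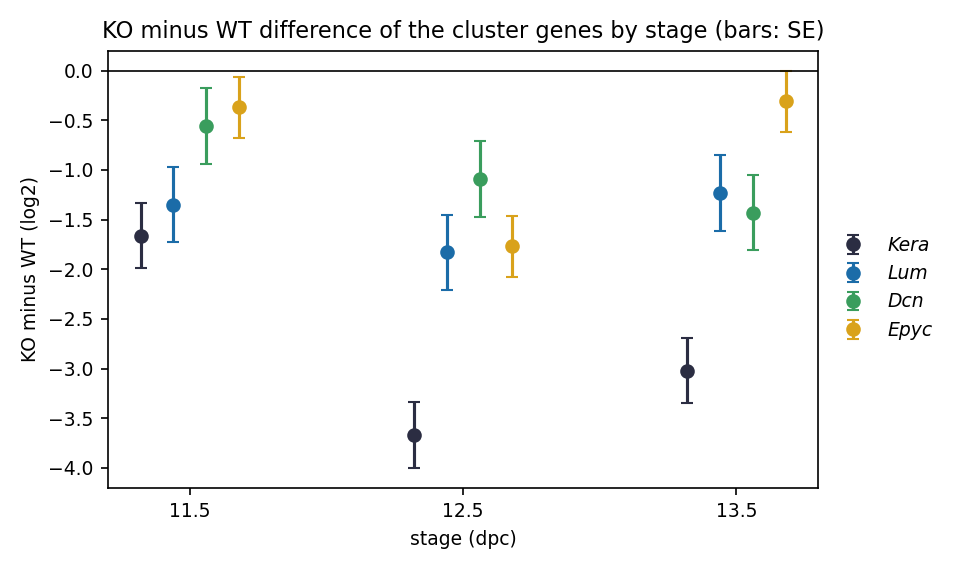
KO minus WT difference in log2 signal (vertical axis) of the 4 genes at each of the 3 stages, with bars for 1 SE. Kera runs from -1.66 at 11.5 dpc to -3.67 at 12.5 dpc, and Epyc is near 0 at 11.5 and 13.5 dpc beside -1.77 at 12.5 dpc.

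The median difference of the 4 was -1.25 averaged over stages, beside -0.0162 over all genes.

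The order of group levels differed between the genes. For Kera and Lum the means of all 3 WT groups lay above those of all 3 KO groups, although the array ranges of WT 11.5 and KO 13.5 dpc overlapped. WT 12.5 and 13.5 dpc did not differ for Kera beyond their spread, and the neighbouring KO groups at 12.5 and 13.5 dpc overlapped for both genes. For Dcn the order followed stage as much as genotype, since the KO groups at 12.5 and 13.5 dpc had higher means than WT limbs at 11.5 dpc. The KO 12.5 dpc range of Dcn overlapped that of WT 11.5 dpc. For Epyc the WT group at 12.5 dpc stood alone at the top and most of the other neighbouring groups overlapped.

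Genes around the cluster were measured in the same arrays. The noncoding gene 4930473O22Rik, chosen for its place between Lum and Kera, read 4.46 to 5.25 in all arrays, under the array median, with a mean KO minus WT of -0.08 ± 0.10 (limma adjusted p = 0.951). Of the 10 measured genes on each side of the cluster, 20 in all and 14 of them bright, 0 passed limma's test in any of the 4 KO minus WT comparisons. Of all genes, 0.203% were called for the mean over stages, and 0.0165%, 0.0385% and 0.0275% at 11.5, 12.5 and 13.5 dpc. At an unadjusted p under 0.05 the counts were 3 for the mean over stages, 0 at 11.5 dpc, 1 at 12.5 dpc and 1 at 13.5 dpc. Of all genes, 6.87%, 1.64%, 10.9% and 5.9% passed that cut in the same order. Averaged over stages the 20 ranged from -0.27 for Kitl, which encodes the ligand of the Kit receptor, to 0.39 for Dusp6, a phosphatase that acts on ERK. The nearest measured genes, 4930556N09Rik before Dcn and Ccer1 after Epyc, had values of 0.11 ± 0.10 (limma adjusted p = 0.926) and -0.05 ± 0.06 (limma adjusted p = 0.934). The widest single-stage value among the 20 was 0.59 at 13.5 dpc. In size it was smaller than the Kera, Lum and Dcn differences there and larger than that of Epyc (-0.31 ± 0.31). The cluster genes were chosen by this contrast and the flanking genes were not.

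**Figure D3:**
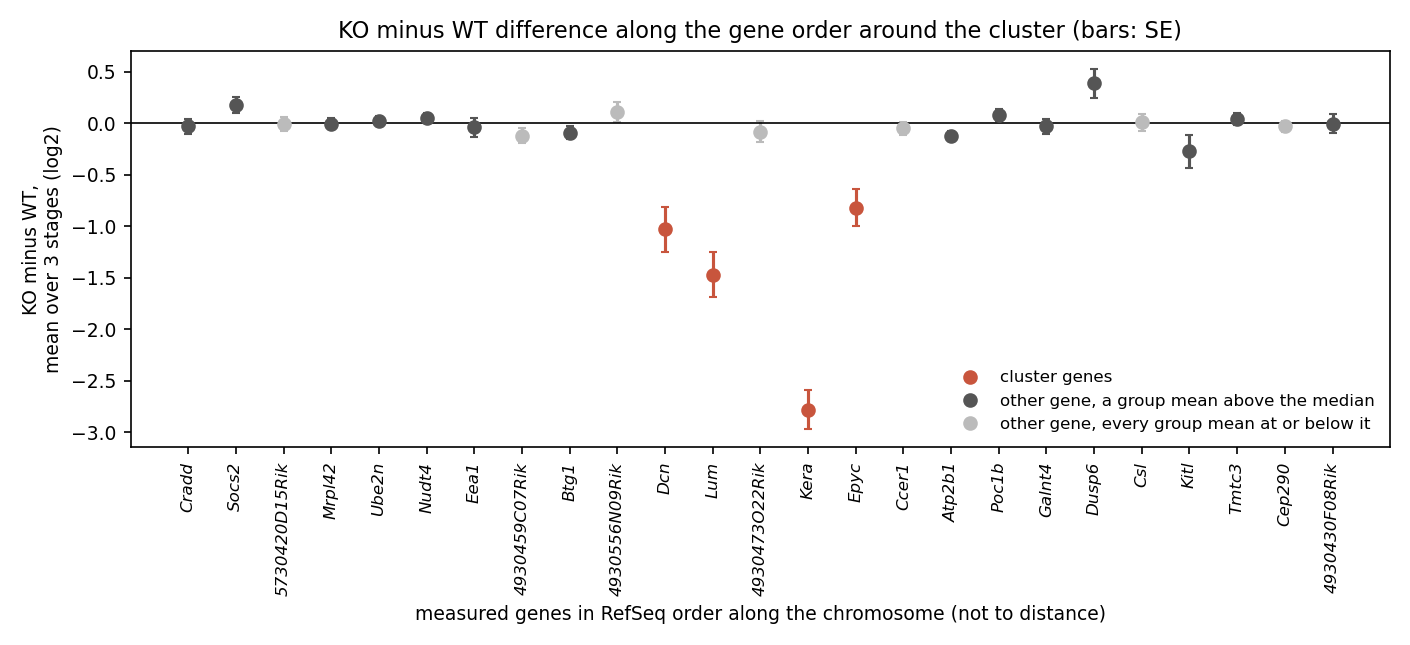
KO minus WT difference in log2 signal, mean over 3 stages (vertical axis, bars for 1 SE), of measured genes in RefSeq order along chromosome 10 (horizontal axis, rank order and not distance). Dcn, Lum, Kera and Epyc lie at -1.03, -1.47, -2.78 and -0.82, while the 20 flanking genes lie between -0.27 and 0.39.

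The change between stages within a genotype was tested for each gene with limma, adjusted over all genes. These comparisons share arrays with the KO minus WT contrast that led to the choice of the genes, and their p-values measure the spread between pools. In WT limbs from 11.5 to 12.5 dpc, 3 of the 4 genes rose, where 6.67% of all genes rose. Kera rose by 2.30 ± 0.33, or 4.94-fold (limma adjusted p = 0.00213). Epyc rose by 1.60 ± 0.31, or 3.04-fold (limma adjusted p = 0.00706), and Dcn by 1.47 ± 0.38, or 2.77-fold (limma adjusted p = 0.024). The Lum value was 0.78 ± 0.38 (limma adjusted p = 0.176), and it passed with only the arrays of the groups compared (limma adjusted p = 0.0211). The Dcn call was lost without either WT 11.5 dpc array (limma adjusted p = 0.132 and 0.0777) or without WT 12.5 dpc replicate 2 (0.123), and with an intensity trend and robust prior (0.0654). The Epyc call was lost without WT 11.5 dpc replicate 1 (0.0507), where Kera alone of the 4 passed. The Kera call held in all 21 alternatives, with adjusted p from 7.43e-05 to 0.0246.

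From 12.5 to 13.5 dpc in WT limbs, 1 of the 4 changed. Epyc fell by 1.51 ± 0.31 on the log2 scale, or 2.84-fold (limma adjusted p = 0.00686), where 10.8% of all genes fell, and the call held in all 21 alternatives. Kera was at -0.02 ± 0.33 (limma adjusted p = 0.971) and Lum at 0.16 ± 0.38 (limma adjusted p = 0.786). Dcn was at 0.96 ± 0.38 (limma adjusted p = 0.0915), and passed with only the arrays of the groups compared (limma adjusted p = 0.0137). The Epyc level at 13.5 dpc was back in the range of 11.5 dpc, in tissue that by then held no girdle and had a higher Pitx1 signal. In WT limbs Kera thus took a step up and then a level course, and Epyc had a single high stage. Dcn took a step up, a call that some alternatives lost, with a further value of 0.96 that did not pass with all arrays. Lum passed in neither interval with all arrays. The courses of the 4 genes were not tested against each other.

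In KO limbs 0 of the 4 genes passed from 11.5 to 12.5 dpc, where 16.8% of all genes were called. An unadjusted p under 0.05 was found for 1 of the 4 (Dcn), beside 31.0% of all genes. The values were 0.30 for Kera, 0.30 for Lum, 0.93 for Dcn and 0.21 for Epyc, with limma adjusted p of 0.579, 0.642, 0.126 and 0.694. The Lum, Dcn and Epyc values depend on KO 12.5 dpc replicate 2. Without it and KO 13.5 dpc replicate 2, they were 1.03, 1.71 and 0.84, while Kera was at 0.32. The KO groups at 12.5 and 13.5 dpc then held 1 array each, with no spread of their own, so no p-value is given. From 12.5 to 13.5 dpc in KO limbs 0 of 4 passed where 18.6% of all genes did. An unadjusted p under 0.05 was found for 0 of the 4, beside 34.2% of all genes. Kera was at 0.63 (limma adjusted p = 0.205), a value that rests on KO 13.5 dpc replicate 2 and was -0.1 without the 2 arrays. Without KO 13.5 dpc replicate 1 instead, Kera was at 1.33. Without KO 12.5 dpc replicate 1, Lum, Dcn and Epyc were at 1.49, 1.4 and 0.58, so the changes in KO limbs rest on single arrays.

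**Figure D4:**
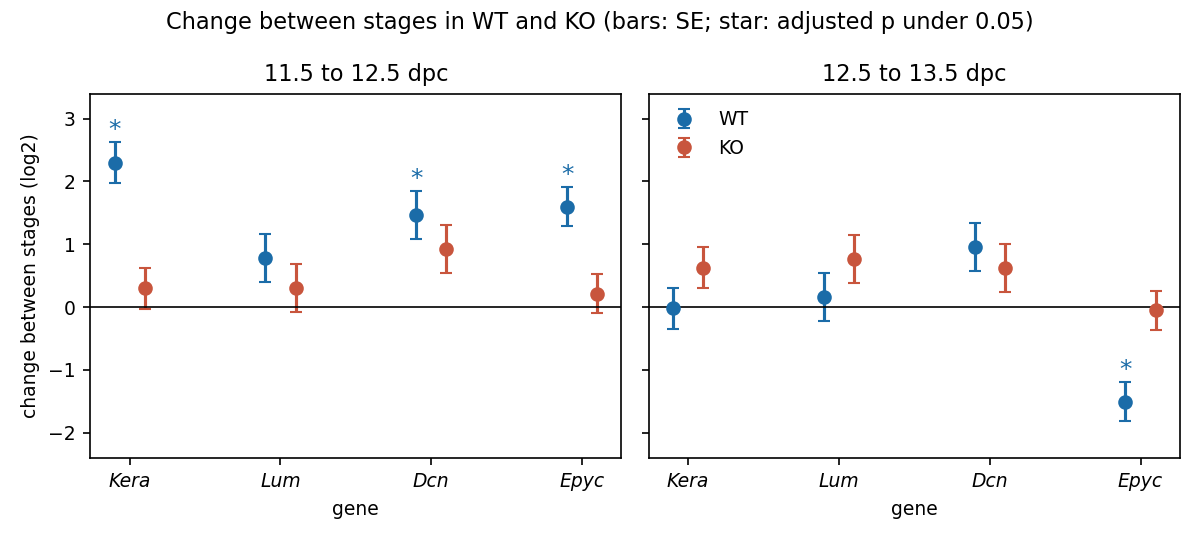
Change in log2 signal between successive stages (vertical axis, bars for 1 SE) of the 4 genes in WT and in KO limbs. Kera rises by 2.30 in WT limbs and is at 0.30 in KO limbs from 11.5 to 12.5 dpc, and Epyc falls by 1.51 in WT limbs from 12.5 to 13.5 dpc.

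Whether the KO effect itself differed between stages was tested as a difference of differences. None of the 18193 genes (0.0%) passed limma's test for any pair of stages, the 4 cluster genes included. At an unadjusted p under 0.05 there were 1132 genes (6.22%) for 12.5 minus 11.5 dpc, among them 2 of the 4, Kera and Epyc. There were 1546 (8.5%) for 13.5 minus 12.5 dpc, with 1 of the 4, Epyc. For 13.5 minus 11.5 dpc there were 377 (2.07%), with 1 of the 4, Kera. For Kera the effect at 12.5 dpc less that at 11.5 dpc was -2.00 ± 0.46 (limma adjusted p = 0.686). For Epyc it was -1.39 ± 0.43 (limma adjusted p = 0.701), and for 13.5 minus 12.5 dpc 1.45 ± 0.43 (limma adjusted p = 0.468). Leaving out each array in turn moved these Epyc values from -2.03 to -0.76 and from 0.82 to 2.09. For Lum and Dcn the 12.5 minus 11.5 dpc values were -0.48 ± 0.54 and -0.54 ± 0.54 (limma adjusted p = 0.941 and 0.933). With both arrays that stood apart left out, Kera was at -1.99 for 12.5 minus 11.5 dpc and at -2.07 for 13.5 minus 11.5 dpc. With all arrays the latter was -1.36 ± 0.46. With only the arrays of the groups compared, Kera passed for 12.5 minus 11.5 dpc (limma adjusted p = 0.00677).

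The 2 KO arrays that stood apart moved the 4 genes differently. In KO 12.5 dpc replicate 2, Lum, Dcn and Epyc lay 1.47, 1.55 and 1.27 below their duplicate, while Kera read 6.34 beside 6.37. The same array had lower means over 8 cartilage genes (8.52 against 9.47), over 7 tendon genes (7.40 against 8.37) and over 17 collagen genes and their partners (10.08 against 11.00). In KO 13.5 dpc replicate 2, Kera was 1.42 and Lum 0.71 above the duplicate, while Dcn read 9.50 beside 9.42. That array also had more Lmx1b (8.88 against 7.48), more of the scapula gene Emx2 (8.09 against 7.31) and more of the embryonic globin Hbb-bh1 (12.91 against 10.48). The part of these marker differences in the Kera and Lum values was not tested.

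**Figure D5:**
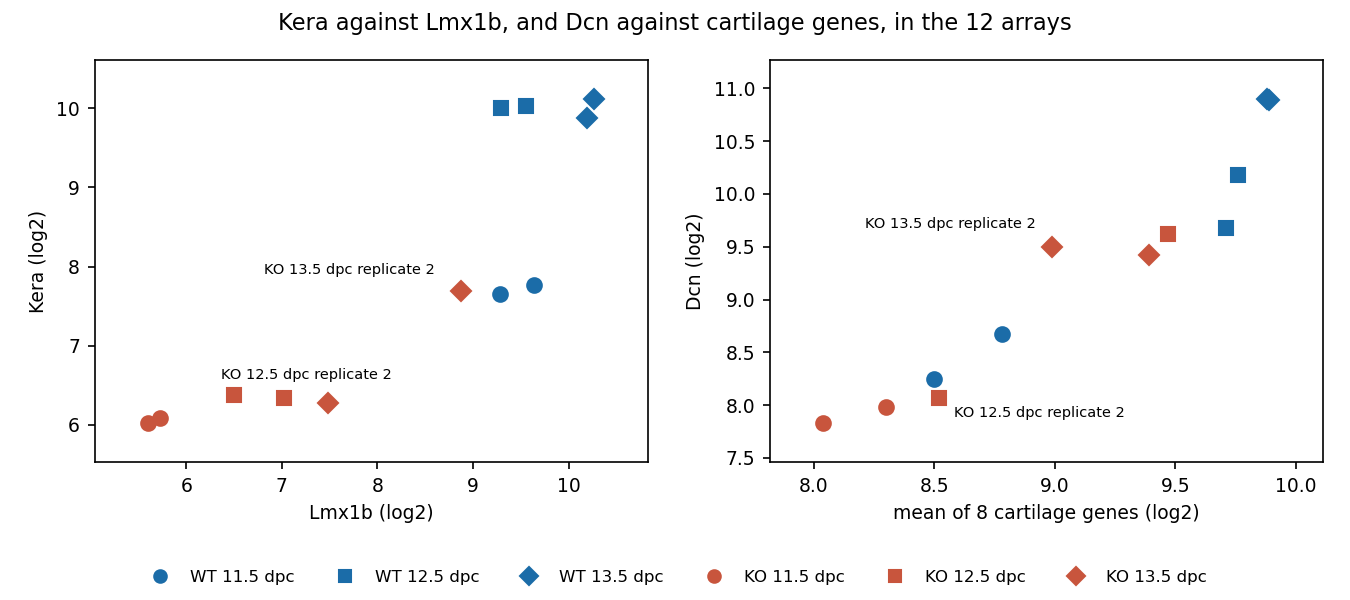
Log2 signal in each of the 12 arrays, of Kera against Lmx1b (left panel) and of Dcn against the mean of 8 cartilage genes (right panel), with colour for genotype and marker shape for stage. KO 13.5 dpc replicate 2 has both the highest Lmx1b (8.88) and the highest Kera (7.69) of the KO arrays, and KO 12.5 dpc replicate 2 has a low cartilage mean (8.52) with Dcn at 8.07.

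As a description over the 12 arrays, which share genotype and stage, Pearson's r was 0.915 between Kera and Lum, 0.854 between Lum and Dcn, 0.783 between Kera and Dcn, and 0.521 between Dcn and Epyc. Lmx1b had r of 0.87 with Kera, 0.88 with Lum, 0.686 with Dcn and 0.453 with Epyc. Among 12099 candidate genes, the pattern most like that of Kera was Apod (r = 0.985), the lipid carrier apolipoprotein D, followed by Cercam, Slitrk1, Pcdh7 and Exoc2 (r from 0.92 to 0.895). After each stage mean was subtracted, Apod again came first (r = 0.986), followed by Emx2, Dnlz, Dcp1b and Aldh7a1. The genes most like Lum were Dmd, the dystrophin gene (r = 0.949), Slitrk1, Tmcc3, Cercam and Cyp7b1. Cercam and Slitrk1 stood in both the Kera and Lum sets. The genes most like Dcn were Susd5 (r = 0.977), Ext1, which builds heparan sulfate chains, Sema3c, the cartilage link protein gene Hapln1 and Clec14a. Those most like Epyc were Dtd1 (r = 0.927), Gpd1, Fuom, Yipf5 and Thbs4.

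Small leucine-rich proteoglycan genes outside the cluster gave a comparison within the family. Of 16 listed, 13 were measured and 7 were bright, and 0 passed in the mean KO minus WT comparison. Of these, 10 values were negative, with a median of -0.07, and 7 were negative without the 2 arrays that stood apart. The lowest values were those of Chad, the cartilage protein chondroadherin, at -0.50 ± 0.20 (limma adjusted p = 0.645), and Aspn, asporin, at -0.43 ± 0.38 (limma adjusted p = 0.914). Nyx, the nyctalopin gene known from the retina, was at -0.32 ± 0.08 (limma adjusted p = 0.318, the smallest of the 13), and Chadl at -0.30 ± 0.12 (limma adjusted p = 0.669). Aspn and Nyx were not bright. Fmod, the tendon proteoglycan fibromodulin, was at -0.26 ± 0.15 (limma adjusted p = 0.82). Bgn, the biglycan gene and closest relative of Dcn, was at -0.05 ± 0.08 (limma adjusted p = 0.965), and Ogn, osteoglycin, at 0.10 ± 0.31 (limma adjusted p = 0.982). In WT limbs 2 of the 13 rose from 11.5 to 12.5 dpc, Prelp by 0.41 and Omd by 0.49 (limma adjusted p = 0.0402 and 0.0354), beside 6.67% of all genes. Without the 2 arrays that stood apart, 8 of the 13 rose, beside 12.3% of all genes, and the median of the 13 was 0.41 in both cases. From 12.5 to 13.5 dpc 3 rose, beside 14.5% of all genes, Bgn by 0.76, Fmod by 1.04 and Chadl by 1.28 (limma adjusted p = 0.00475, 0.0164 and 0.00244). The counts were 3 up and 1 down without the 2 arrays.

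Collagen genes and their fibril partners, the usual binding partners of these proteoglycans, were all negative in the mean KO minus WT comparison, 17 of 17 with a median of -0.25, and 0 passed. Without the 2 arrays that stood apart, 13 of 17 were negative and the median was -0.09. In WT limbs 4 of 17 rose from 11.5 to 12.5 dpc, among them Col2a1, the main cartilage collagen, by 0.91 and Col11a1 by 1.19, beside 6.67% of all genes. As many as 13 of 17 rose without the 2 arrays, beside 12.3% of all genes. From 12.5 to 13.5 dpc 3 rose, beside 14.5% of all genes, among them Col1a1, the main collagen of tendon and dermis, by 1.03. In that interval 10 of 17 rose without the 2 arrays, beside 20.5% of all genes. Of 18 measured enzymes that build or sulfate glycosaminoglycan chains, 0 passed in the mean KO minus WT comparison (13 negative, median -0.08). The chondroitin sulfotransferase gene Chst11 was at -0.37 ± 0.07 (limma adjusted p = 0.0804). In WT limbs 1 of the 18 rose and 6 fell from 11.5 to 12.5 dpc, beside 6.67% and 13.1% of all genes. From 12.5 to 13.5 dpc 9 of the 18 rose, Chpf by 1.00 and Chst2 by 0.86, beside 14.5% of all genes.

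Cell type markers were read beside the cluster. All 8 cartilage genes were negative in the mean KO minus WT comparison, with a median of -0.53, and 0 passed with all arrays. Without the 2 arrays all 8 were still negative, and the median was -0.36. In WT limbs 6 of the 8 rose from 11.5 to 12.5 dpc with all arrays, the interval in which Epyc rose, beside 6.67% of all genes. Among the 6 were Acan, the aggrecan gene, at 1.69 ± 0.38 (limma adjusted p = 0.0135) and Matn1 at 1.88 ± 0.53 (limma adjusted p = 0.0326). From 12.5 to 13.5 dpc, when Epyc fell, 0 of the 8 passed in either direction with all arrays, where 25.3% of all genes did. The median of the 8 was 0.19. The 2 arrays that stood apart are KO arrays and do not enter the WT medians of the 8. These were 1.01 from 11.5 to 12.5 dpc and 0.19 from 12.5 to 13.5 dpc. The mean over the 8 was 8.50 and 8.78, 9.71 and 9.76, and 9.89 and 9.88 in the WT arrays in stage order. In the KO arrays it was 8.04 and 8.30, 9.47 and 8.52, and 9.39 and 8.99, below the WT arrays at each stage. Tendon genes had 5 of 7 negative values with a median of -0.26, and -0.02 without the 2 arrays. The 5 joint interzone genes were all negative, with a median of -0.34, and -0.12 without the 2 arrays. The list of 8 loose connective tissue and dermis genes had 7 negative values and a median of -0.07, and 0.02 without the 2 arrays. No gene of the tendon, joint or connective tissue lists passed. The part of these lower cartilage and connective tissue markers in the Lum, Dcn and Epyc differences was not tested.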

How the data were processed

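Affymetrix mouse expression arrays measured pooled limb RNA in 12 samples. The authors deposited 1 table of log2 signal per probe set, made with RMA (background correction, quantile normalization and probe summary) per the submitters' processing notes. No version of it was named. The values were not transformed again. Quantile normalization gives each array nearly the same distribution, so absolute changes of total RNA cannot be seen, and low signals compress fold differences.

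Of 45101 probe sets, 64 controls were left out, 34945 had 1 gene in the platform table used, 932 had several and 9160 had none. Of the named ones, 34741 matched RefSeq (GRCm38.p6), with 0 symbols changed. Each of 18193 genes took its probe set with the highest mean. "Bright" means at least 1 group mean above the median of all values. limma 3.58.1 in R 4.3.3 fitted 6 group means to all 12 arrays (6 residual degrees of freedom), with two-sided tests and Benjamini-Hochberg adjustment over 18193 genes at 0.05. Precision is limited by 2 arrays per group.

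The genes named were the 4 cluster genes, Lmx1b, flanking genes as counts with the nearest and extreme ones, the 5 genes most correlated with each cluster gene, and members of the gene lists. The noncoding gene between Lum and Kera, and the extreme flanking genes, were named outside that rule, the latter after their values were seen. Cluster genes and lists were chosen with earlier results of these data known. The code was tested on simulated data. Alternatives were other probe set rules, renewed normalization, dim genes left out, a replicate block, array weights, an intensity trend with robust prior, only the arrays compared, and arrays left out.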

Additional observations from a re-analysis of the deposited data

How the results depend on the processing

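All KO minus WT values of the 4 genes stayed negative under the 21 alternatives tried. With the mean of all probe sets of a gene, which adds the dim probe set, Dcn was at -0.49 over stages, -0.57 at 12.5 dpc and -0.73 at 13.5 dpc. Leaving out each array in turn gave ranges at 12.5 dpc of -2.56 to -1.09 for Lum, -1.87 to -0.32 for Dcn and -2.4 to -1.14 for Epyc, and at 13.5 dpc of -3.73 to -2.31 for Kera. Without both KO 12.5 and 13.5 dpc replicate 2, Lum, Dcn and Epyc at 12.5 dpc were -1.09, -0.32 and -1.14, and Kera at 13.5 dpc -3.73.

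Leaving out an array leaves 1 array in its group, so ranges of values and no counts of calls are given for such fits. In WT limbs from 11.5 to 12.5 dpc they were 2.25 to 2.36 for Kera and 0.61 to 0.95 for Lum. Those of Dcn and Epyc were 1.22 to 1.72 and 1.44 to 1.76. From 12.5 to 13.5 dpc they were 0.1 to 0.22 for Lum, 0.71 to 1.21 for Dcn and -1.66 to -1.35 for Epyc. In KO limbs 0 to 3 were called in either interval, and 0 to 1 in each of the 3 differences of KO effect. In WT limbs from 12.5 to 13.5 dpc 2 were called, Dcn being added, with array quality weights, with only the arrays compared, and without both KO arrays. With only the arrays compared, Kera was called for the difference 12.5 minus 11.5 dpc, as 1 gene of 18193 in all. Without both KO arrays, Lum, Dcn and Epyc changed by 1.03, 1.71 and 0.84 in KO limbs from 11.5 to 12.5 dpc. Epyc changed by -0.79 from 12.5 to 13.5 dpc. The Kera differences of KO effect 12.5 minus 11.5 and 13.5 minus 11.5 dpc were -1.99 and -2.07.

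Some signs turned. Renewed quantile normalization put the Kera WT change from 12.5 to 13.5 dpc at 0.04. Without both KO arrays, the KO changes from 12.5 to 13.5 dpc were -0.1 for Kera, -0.33 for Lum and -0.19 for Dcn. The differences of KO effect 12.5 minus 11.5 dpc were then 0.25 for Lum and 0.24 for Dcn, those for 13.5 minus 12.5 dpc -0.08 for Kera, -0.5 for Lum and -1.15 for Dcn (against -0.34 with all arrays), and those for 13.5 minus 11.5 dpc -0.24 for Lum and -0.05 for Epyc. With each array left out in turn, the Kera WT change from 12.5 to 13.5 dpc ran from -0.14 to 0.1. KO changes from 11.5 to 12.5 dpc ran from -0.44 to 1.03 for Lum and -0.42 to 0.84 for Epyc. Those from 12.5 to 13.5 dpc ran from -0.08 to 1.33 for Kera, 0.02 to 1.49 for Lum, -0.15 to 1.4 for Dcn and -0.68 to 0.58 for Epyc. Differences 12.5 minus 11.5 dpc ran from -1.22 to 0.25 for Lum and -1.31 to 0.24 for Dcn. Differences 13.5 minus 12.5 dpc ran from -0.06 to 1.35 for Kera, -0.14 to 1.33 for Lum and -1.11 to 0.44 for Dcn. Differences 13.5 minus 11.5 dpc ran from -0.24 to 0.47 for Lum and -0.06 to 0.18 for Epyc. The Epyc KO change from 12.5 to 13.5 dpc was 0.58 without KO 12.5 dpc replicate 1 and -0.68 without replicate 2. The cause of these moves was not tested.

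Deviations of same-numbered KO and WT arrays correlated at 0.187, -0.12 and -0.0869 in stage order. These values cannot show whether a shared replicate number marks shared handling. With the replicate number as a block, 3 genes were still called in WT limbs from 11.5 to 12.5 dpc (Kera limma adjusted p = 0.00431) and 1 from 12.5 to 13.5 dpc. Of all 18193 genes, 3314 and 4370 were called there. In the mean KO minus WT comparison the block left 6 of all genes called, against 37 without it. The mean over stages needs all groups, so it has no value with only the arrays compared. The dim Epyc signal outside WT 12.5 dpc limits what these arrays can show.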
